A study of Mus musculus with 24 samples.

Results

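The heat shock chaperones described here are 10 listed genes of the cytosol and mitochondria, taken by name from a table of 21793 genes. They are Hspa8, Hspa1a, Hspa1b, Hsp90aa1, Hsp90ab1, Dnajb1, Dnaja1, Hsph1, Hspd1 and Hspe1, and all 10 were found. They were measured in hippocampal mRNA of 24 mice, all female: 12 were of the line 3xTg-AD (3xTg) and 12 of the strain B6129SF2/J (WT), a hybrid of C57BL/6 and 129 mice. The 3xTg line, a model of Alzheimer's disease, carries human APP and MAPT transgenes driven in neurons by a Thy1 cassette. Feeding began at an age of 3 months and lasted 6 months. The control diet (C, 4.1 kcal/g) was 70% carbohydrate, 10% protein and 20% fat, all of it long-chain triglyceride. The MCT diet (M, also 4.1 kcal/g) was 70% carbohydrate, 10% protein, 10% medium-chain triglyceride and 10% long-chain triglyceride. The ketogenic diet (K, 6.7 kcal/g) was carbohydrate-free, with 10% protein and 90% fat of the long-chain kind. Groups held 3 (3xTg_C), 5 (3xTg_K) and 4 mice (3xTg_M, WT_C, WT_K and WT_M), with 1 hippocampal library per mouse, named by group and number.

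Chaperones of these families bind unfolded stretches of other proteins and help them fold, refold or reach the degradation machinery. Hsp70 proteins work in cycles of ATP hydrolysis that J-domain proteins start and exchange factors end, and the cytosolic Hsp90 proteins take over many of their clients. Some members are made all the time and others mainly after proteotoxic stress, when heat shock factor HSF1 binds heat shock elements upstream of their genes. In neurons, Hspa8 also strips clathrin from synaptic vesicles, and Hsp70, Hsp90 and J-domain proteins are known to act on tau and other proteins that aggregate in neurodegeneration.

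Thy1, the check of the genotype labels, lay between 6952 and 8137 normalised counts in 11 WT libraries and between 20385 and 29277 in 10 3xTg libraries. The libraries labelled 3xTg_C_3 (9189), 3xTg_K_1 (8112) and WT_M_2 (23048) went against their labels. Directions below use the labels as deposited, and values without these 3 libraries are given beside the results that rest on them. Depth was between 10.1 and 25.8 M reads, except in 3xTg_K_2 with 2.65 M. Markers of hippocampal neurons, astrocytes, oligodendrocytes and microglia were above 0 in every library. The summed choroid plexus markers reached 12942 in WT_C_1 and 4797 in WT_K_1, against a median of 568. In bulk RNA, fewer cells of a type and less RNA per cell cannot be told apart.

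The upstream sequences show why 2 of the inducible genes are best read together, and where the letters of heat shock elements lie. Hspa1a and Hspa1b encode near-identical Hsp70 proteins from single-exon genes whose starts lie 12.9 kb apart on chromosome 17. In the 250 bases before their starts they differed at 3 bases. The 150 bases nearest the start differed at 1, T149G, given as the base of Hspa1a, its position from 1 at the 5′ end of the printed stretch, and the base of Hspa1b. The search was for 2 facing or opposed units (GAANNTTC or TTCNNGAA) and for 3 alternating units (GAANNTTCNNGAA or TTCNNGAANNTTC), on both strands of the 250 bases before each RefSeq start. The longer letters contain the shorter. Capitals below mark the matches, and both stretches lie on the minus strand of GRCm38.p6, at chr17:34972157-34972306 and chr17:34959239-34959388.
Hspa1a: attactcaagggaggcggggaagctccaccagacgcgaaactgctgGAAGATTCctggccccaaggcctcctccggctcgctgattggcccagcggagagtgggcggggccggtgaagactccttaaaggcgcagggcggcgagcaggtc
Hspa1b: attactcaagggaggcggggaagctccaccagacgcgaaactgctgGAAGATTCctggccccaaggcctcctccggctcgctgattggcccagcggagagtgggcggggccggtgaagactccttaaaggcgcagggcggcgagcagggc

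Of the members, 7 had an entry among the RefSeq upstream sequences, with 12 start sites in all. Hspa8, Hsp90aa1 and Hsp90ab1 had none. The letters of 2 units were found in 6 members (Hspa1a, Hspa1b, Hspd1, Hspe1, Dnaja1 and Hsph1), against 14.5% of all 27025 genes with an entry (12.8% of 32851 windows). Those of 3 units were found for Hspd1 and Hspe1, against 0.514% of genes (0.466% of windows). Hspd1 and Hspe1, the mitochondrial chaperonin and its lid, are transcribed away from each other on chromosome 1. A single 18-base run accounts for the matches of both: it begins 89 bases before the Hspe1 start and 144 bases before 1 of the 2 Hspd1 starts, read from the other strand. The first bases of that Hspd1 start, 55087932, were in 1 annotated transcript of the gene. Those of the other Hspd1 start, 55088243, which had no match, were in 2. The Dnaja1 match lies before its start at 40722468, whose first bases were in 0 annotated transcripts of the gene. Its starts at 40722922 and 40722930, whose first bases were in 2 and 3 transcripts, had no match. The Dnajb1 starts at 83608175 and 83608548 also had no match, and the first bases of each were in 0 annotated transcripts. The sites of the other members are shown for comparison, 30 bases each, 5′ to 3′ on the strand of the named gene, with the matches in capitals.
Hspe1 and Hspd1 (chr1:55088053-55088082, plus strand): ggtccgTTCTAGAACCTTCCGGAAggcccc
Hsph1 (chr5:149636351-149636380, minus strand): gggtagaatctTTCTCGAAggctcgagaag
Dnaja1 (chr4:40722333-40722362, plus strand): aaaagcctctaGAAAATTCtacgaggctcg
A match is a run of letters and not a measured binding site.

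Levels between genes were compared as the mean normalised count per kilobase of exon over the 24 libraries. The length was that of all annotated exons of a gene together, which lowers the value of genes with many alternative exons. It was 8629 bases for Dnaja1, 7266 for Hsph1 and 2967 for Hspa1a, where the longest transcripts had 5622, 4764 and 2967. Hsp90ab1, the constitutive cytosolic Hsp90, stood highest at 8558 per kb. Hsp90aa1, the more inducible Hsp90, followed at 1777, and Hspa8, the constitutive Hsp70, at 1307. Hsph1, an Hsp110 exchange factor, was at 1001. The chaperonin gene Hspd1 was at 711 and its partner Hspe1 at 418, the J-domain genes Dnaja1 and Dnajb1 at 311 and 233, and Hspa1b and Hspa1a at 125 and 75.3.

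These levels rest partly on reads that could belong to near copies. Of the 50-base windows of the longest transcript, 58.8% of those of Hspa1a were also found in Hspa1b. For Hsp90aa1, 58.5% were found in other annotated genes, mostly in Gm12346, for Hspa8 51.4%, mostly in Gm15459, and for Hspd1 44.8%, mostly in Hspd1-ps3. The share was 18.7% for Dnaja1, 8.20% for Hspe1, 4.49% for Hsp90ab1, 0.407% for Dnajb1 and 0% for Hsph1. Levels of Hspa1a, Hspa1b, Hsp90aa1, Hspa8 and Hspd1 are uncertain to that extent. The annotated Hspd1 and Hspe1 genes also overlap by 112 bases on opposite strands.

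The members ranged from steady to widely varying between mice. Across the 24 libraries the coefficient of variation was 120% for Hspa1a and 121% for Hspa1b, where genes within 0.5 log2 units of their mean had a median of 10.3% and 8.74%. It was 23.7% for Dnajb1 (median of like genes 7.27%) and 22.9% for Hspa8 (5.82%). Hspe1 was at 15.2% (7.54%) and Hsph1 at 9.07% (5.73%), where 94.1% and 90.4% of like genes had a lower value. Dnaja1 was at 6.83% (6.28%), Hsp90aa1 at 6.44% (5.76%) and Hsp90ab1 at 5.53% (5.83%). Hspd1 was the steadiest at 4.15%, and 8.32% of genes of like level had a lower value.

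**Figure D1:**
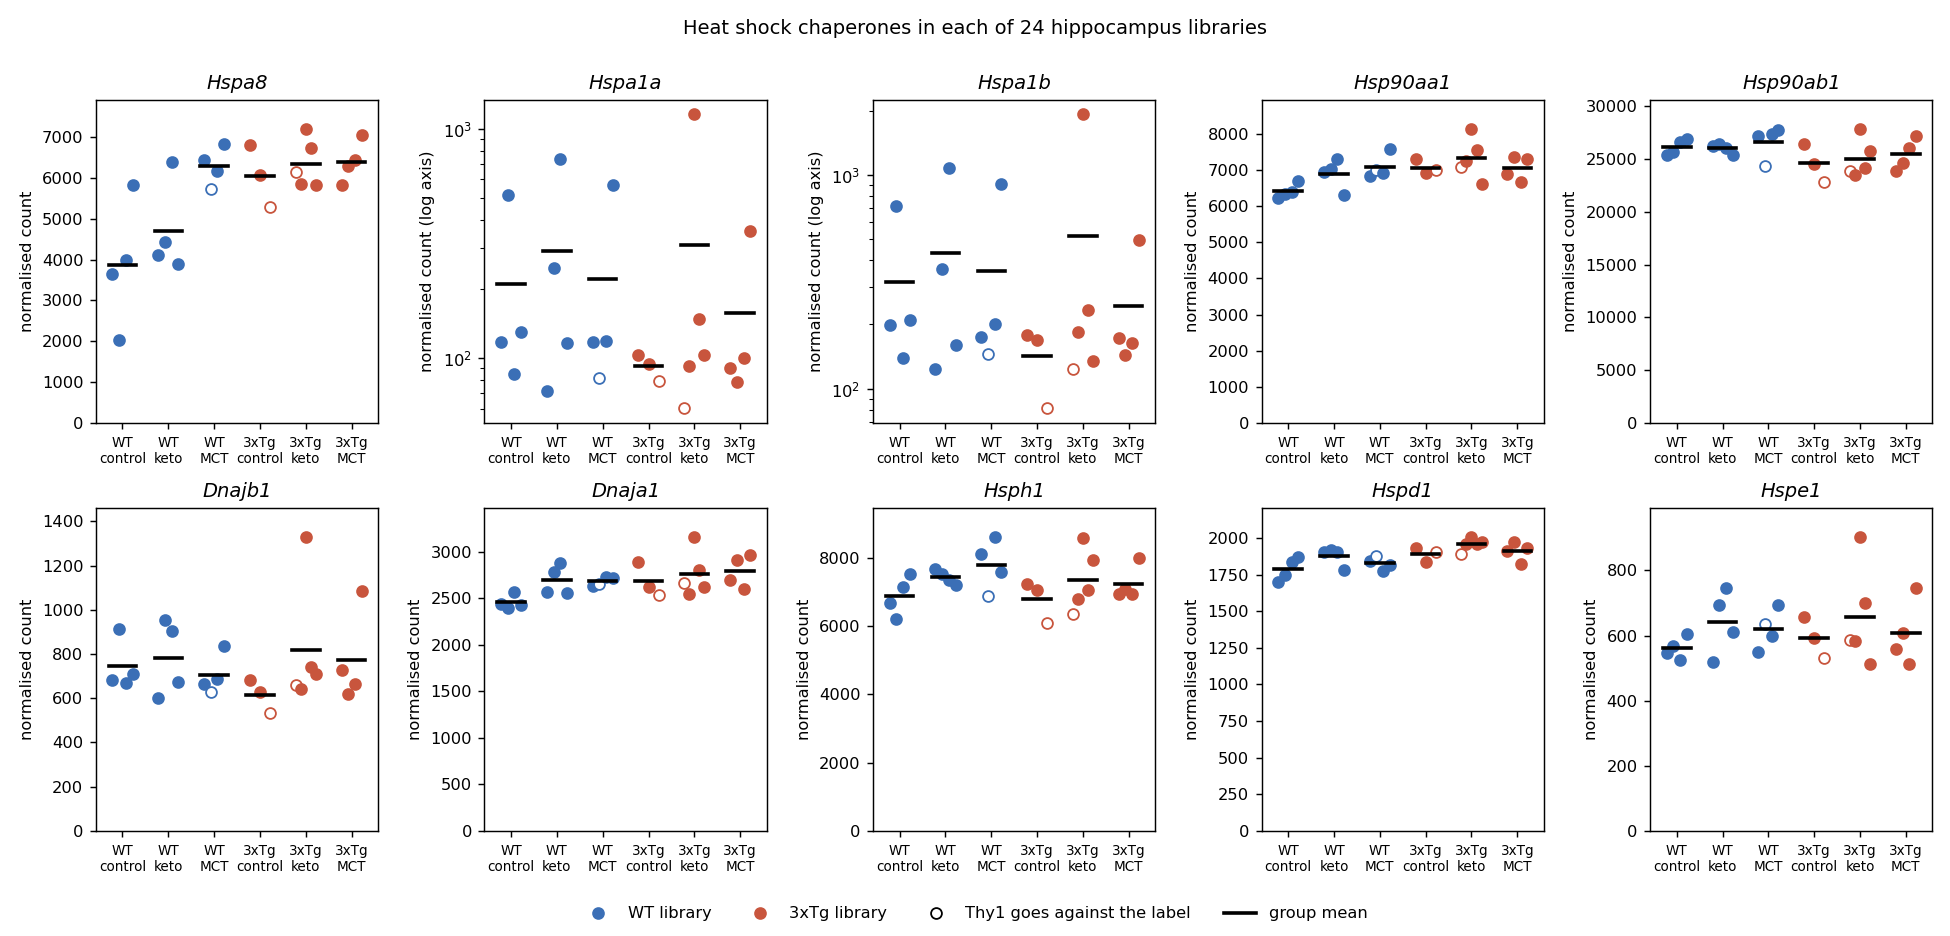
Normalised count of each of the 10 chaperones (y axis, log scale for Hspa1a and Hspa1b, from 0 for the others) in the 24 libraries, by genotype and diet. Each point is 1 library, bars are group means, and open points are the 3 libraries whose Thy1 level goes against the label. Hspa8 is below 5000 in 6 WT libraries of the control and ketogenic diets, and the high libraries of Hspa1a and Hspa1b are scattered over 5 groups.

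Hspa8, the most abundant Hsp70 of the cytosol (chromosome 9, 40800984 to 40810087), was the only member called in a comparison. In WT on the control diet it was at 3649, 2028, 3988 and 5828 normalised counts. In WT on the ketogenic diet it was at 4123, 4419, 6377 and 3881. In WT on the MCT diet it was at 6435, 5724, 6160 and 6820. The control and ketogenic WT mice were thus mostly low, with 1 high mouse in each group, and the MCT mice were all high.

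In 3xTg, Hspa8 was at 6795, 6057 and 5288 on the control diet. On the ketogenic diet it was at 6149, 5850, 7191, 6727 and 5821, and on the MCT diet at 5818, 6289, 6427 and 7048. Of all 24 libraries 6 were under 5000, and all 6 were WT libraries on the control or ketogenic diet. The highest of these 6 was at 4419 and the lowest of the other 18 at 5288. The library labelled 3xTg_C_3 was the lowest of 3xTg and the library labelled WT_M_2 the lowest of WT MCT.

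The genotype comparison averaged over the 3 diets asks how chaperone levels differ between the strains on average. Hspa8 rose in 3xTg by a log2 difference of 0.40 ± 0.11 (SE; limma adjusted p = 0.0234), a 1.32-fold higher level, with means over the 3 groups of 6263 against 4953. That average covers unlike values, 0.73 on the control, 0.46 on the ketogenic and 0.02 on the MCT diet. Hspa8 was 1 of 10 members called, where 8.10% of all 14162 genes were called. Without the 3 libraries against their labels the difference was 0.42 (adjusted p = 0.0247), and 13.2% of genes were called. The call was lost without 3xTg_C_1 (0.38, adjusted p = 0.0692) and kept in the other 33 alternatives, where the adjusted p lay between 0.00354 and 0.0447.

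The other 9 members did not pass the test. Hspd1 was at 1918 in 3xTg and 1831 in WT, a log2 difference of 0.07 ± 0.02 (adjusted p = 0.0816). Hsp90aa1 was at 0.07 ± 0.03 (adjusted p = 0.161) and Hsp90ab1 at -0.07 ± 0.03 (adjusted p = 0.181). Their intervals (95%, unadjusted) were 0.02 to 0.12, 0.01 to 0.14 and -0.14 to -0.00. For Dnaja1 the difference was 0.07 ± 0.03 (adjusted p = 0.217), for Hsph1 -0.05, for Dnajb1 -0.04 and for Hspe1 0.02. Hspa1a at -0.49 and Hspa1b at -0.45 had intervals from -1.42 to 0.44 and from -1.34 to 0.44, too wide to show a difference of that size. Of the 10 members 5 were positive, with a median of -0.01, against 49.6% of all genes and a median of -0.00.

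Within single diets no member was called between genotypes by limma, edgeR or DESeq2 (0 of 10 in each diet), where limma called 0.0565% of all genes on the control diet, 0.155% on the ketogenic diet and 0% on the MCT diet. Without the 3 libraries against their labels limma still called 0 of 10 members in each diet, where it called 1.74%, 3.62% and 1.77% of all genes. On the control diet 2 members had an unadjusted p under 0.05. They were Hspa8, at 0.73 ± 0.20 (adjusted p = 0.122), and Hsp90aa1, at 0.14 ± 0.06 (adjusted p = 0.300). Hsp90aa1 was at 7298, 6911 and 6989 in 3xTg and at 6231, 6339, 6406 and 6710 in WT. Hspa8 was called on the control diet without WT_C_4 (0.96, adjusted p = 0.0453) and was at 0.45 without WT_C_2. On the ketogenic diet Hspa8 was at 0.46 ± 0.18 (adjusted p = 0.230), the 1 member of 10 with an unadjusted p under 0.05. On the MCT diet it was at 0.02 ± 0.19 (adjusted p = 0.994, interval -0.36 to 0.41), and 0 of 10 members had an unadjusted p under 0.05.

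Some cell type markers were also called between the genotypes averaged over diets, where 8.10% of all genes were called. Of 4 dentate granule cell markers 3 were lower in 3xTg. Called higher were 2 of 5 oligodendrocyte, 2 of 5 astrocyte, 2 of 5 interneuron and 1 of 5 microglia markers. Called lower were 1 of 5 neuron, 1 of 4 pyramidal and 2 of 5 endothelial markers. The summed oligodendrocyte markers lay between 47965 and 58642 in the 6 libraries with Hspa8 under 5000 and between 49594 and 79738 in the other 18. WT_C_2, the library lowest in Hspa8, was the lowest of all 24 in this sum, and its depth was 10.1 M reads. The part of these markers in the Hspa8 result was not tested.

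Of the 5 genes whose levels were most like those of Hspa8, 4 lie on its own chromosome. Among genes averaging 32 normalised counts or more, the highest Pearson r of log2 values over the 24 libraries belonged to Cryab (0.886), a small heat shock protein of glia. Pts, a tetrahydrobiopterin synthesis enzyme (0.802), Rexo2, an oligonuclease (0.782), Arl6ip1 (0.775) and Layn, a hyaluronan receptor (0.768), followed. Cryab, Pts, Rexo2 and Layn lie on chromosome 9, with starts between 7.67 and 10.3 Mb from that of Hspa8, and Arl6ip1 lies on chromosome 7. With the group means removed, r was 0.847 for Cryab, 0.690 for Rexo2, 0.622 for Layn, 0.615 for Pts and 0.496 for Arl6ip1. All of these values share the same libraries and their scaling.

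WT_C_2 was the lowest of the 24 libraries in each of these 5 genes and in Hspa8. Cryab was at 401 there and between 783 and 1404 in the others. In the other 5 libraries with Hspa8 under 5000, Cryab was at 849, 889, 796, 785 and 783, where the library labelled WT_M_2 was at 825. Cryab itself was not called between genotypes averaged over diets (0.26 ± 0.12, adjusted p = 0.184).

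A count along chromosome 9 was made after these genes were seen, and its window includes Cryab, Pts, Rexo2 and Layn, so it partly restates them. Of 163 other genes that start within 15 Mb of Hspa8, 10 (6.13%) had an r of 0.6 or more and 4 (2.45%) one of -0.6 or less. Of 547 genes farther away on that chromosome the shares were 0.914% and 0.183%, and of 11560 genes on other chromosomes 0.917% and 0.692%. In numbers, 10 near genes, 5 far genes and 106 genes elsewhere had an r of 0.6 or more. Leaving out Cryab, Pts, Rexo2 and Layn, 6 of 159 near genes (3.77%) did. Over the 12 libraries labelled WT, r was 0.6 or more for 12.3% of near genes, 3.29% of far genes and 4.06% of genes elsewhere. Of the near genes other than Cryab, Pts, Rexo2 and Layn, 16 of 159 (10.1%) reached it. These 12 libraries include WT_M_2, and no value without it is given here. The median r of the near genes was -0.000762 over all libraries, so most near genes did not follow Hspa8. B6129SF2/J mice carry alleles of both parent strains in varying combination, and the alleles of each mouse were not analysed here.

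**Figure D2:**
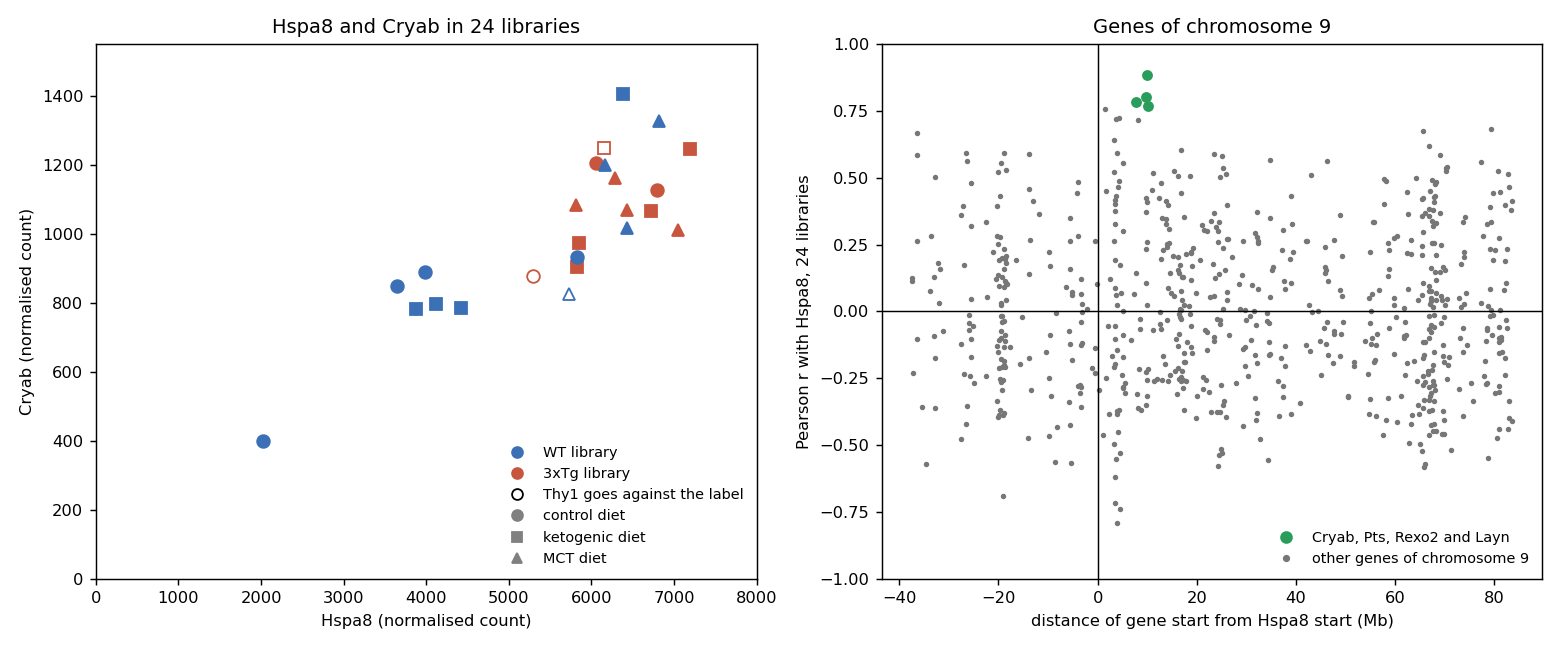
Left, normalised counts of Hspa8 (x axis) and Cryab (y axis) in the 24 libraries, by genotype (colour) and diet (shape), with open symbols for the 3 libraries against their labels. Right, Pearson r with Hspa8 over the 24 libraries (y axis) for each gene of chromosome 9 against its distance from Hspa8 in Mb, with Cryab, Pts, Rexo2 and Layn in green between 7.67 and 10.3 Mb.

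The inducible Hsp70 genes Hspa1a and Hspa1b were high in a few mice of nearly every group. Hspa1b was at 200, 720, 139 and 210 in WT_C, at 124, 365, 1082 and 160 in WT_K, and at 175, 146, 200.9 and 907 in WT_M. In 3xTg it was at 179, 169 and 81.1 on the control diet. It was at 124, 184, 1921, 233 and 136 on the ketogenic diet and at 173, 144, 164 and 499 on the MCT diet. The 6 high libraries were 3xTg_K_3, WT_K_3, WT_M_4, WT_C_2, 3xTg_M_4 and WT_K_2, from 5 of the 6 groups. Every group except the control diet of 3xTg had at least 1 of them.

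In 3xTg_K_3, Hspa1b was at 10.9 times and Hspa1a at 10.5 times the median of 24 libraries. Hspa1a was at 1153 in this library, at 739, 568, 511, 359 and 247 in the next 5, and between 60.2 and 147 in the other 18. Those are the same 6 libraries in the same order as for Hspa1b. The 2 genes share much of their sequence, so these orders are not separate observations. The ratio of Hspa1b to Hspa1a had a median of 1.64 and lay between 1.02 and 2.05.

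Dnajb1, the J-domain partner that Hsp70 uses to take apart aggregates, was highest in the same 6 libraries. It was at 1329 in 3xTg_K_3, 1085 in 3xTg_M_4, 952 in WT_K_2, 915 in WT_C_2, 902 in WT_K_3 and 837 in WT_M_4. The other 18 libraries lay between 534 and 742. For Hspe1, the lid of the mitochondrial chaperonin, 5 of its 6 highest libraries were among these 6. The exception was WT_C_2, where Hspe1 was at 567 and so below the median of 596. The overlap was 4 of 6 for Hsp90aa1, 3 of 6 each for Hspa8, Hsp90ab1 and Dnaja1, 2 of 6 for Hsph1 and 1 of 6 for Hspd1.

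**Figure D3:**
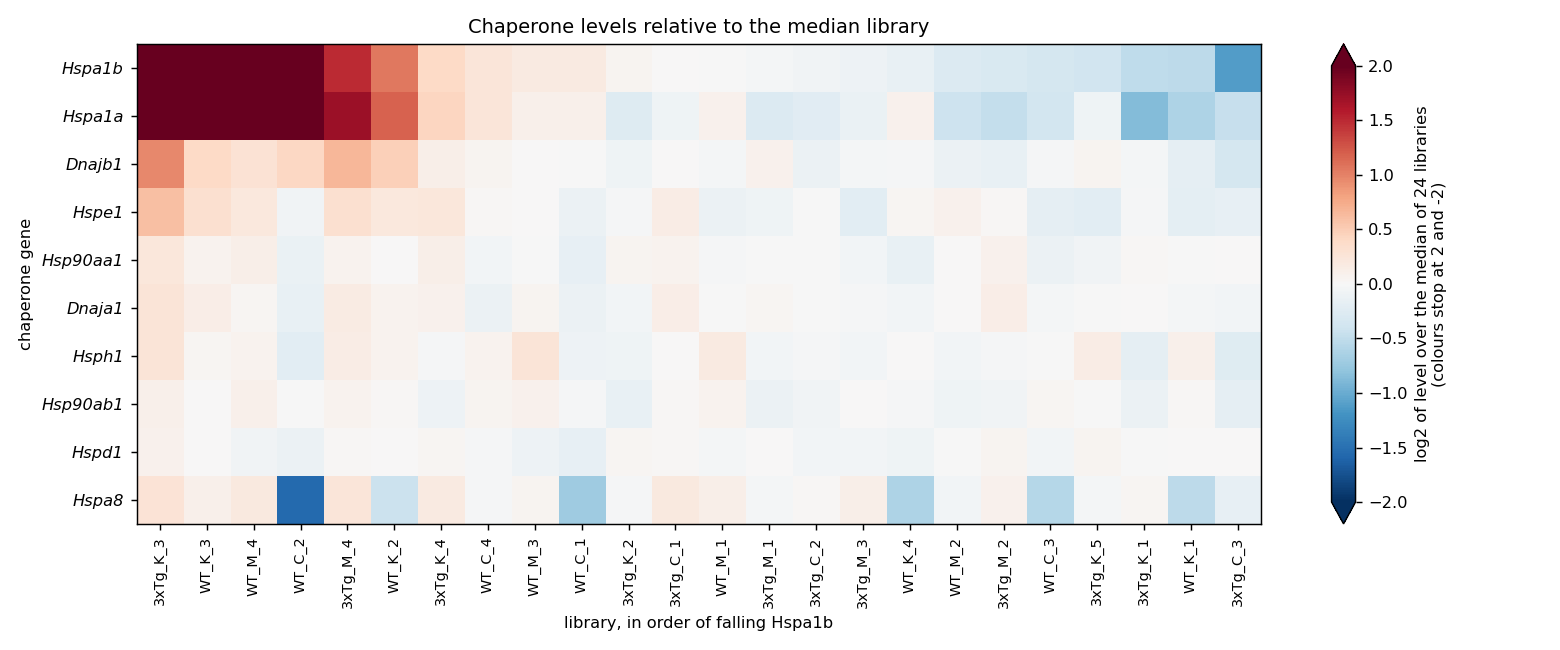
Log2 of each chaperone's level over its median of 24 libraries (colour, stopping at 2 and -2) for each gene (rows) and library (columns, in order of falling Hspa1b). The 6 libraries at the left are high in Hspa1b, Hspa1a and Dnajb1, and the low Hspa8 libraries are spread along the order, with WT_C_2 high in Hspa1b and lowest in Hspa8.

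3xTg_K_3 ranked first of 24 for 9 of the 10 members. The exception was Hsph1, where it was at 8578 and WT_M_3 at 8613. At the other end, the library labelled 3xTg_C_3 ranked last for 4 members, Hspa1b, Hsp90ab1, Dnajb1 and Hsph1. Depth was 14.7 M reads in 3xTg_K_3 and 15.1 M in 3xTg_C_3, both within the range of the others.

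Immediate early genes, which neurons transcribe within minutes of activity, were high in the same mice as Hspa1b. The summed count of 12 of them (Fos, Fosb, Jun, Junb, Egr1, Egr2, Egr4, Arc, Npas4, Nr4a1, Ier2 and Dusp1) was 11505 in 3xTg_K_3, 9821 in WT_K_3 and 9424 in WT_M_4. It was 11716 in WT_C_2, 9970 in 3xTg_M_4 and 11822 in WT_K_2. In the other 18 libraries it lay between 5745 and 9395, so the 6 libraries highest in Hspa1b were also the 6 highest in this sum, though 9424 in WT_M_4 lay next to 9395 in WT_K_4. Its part in the Hspa1b levels was not tested.

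**Figure D4:**
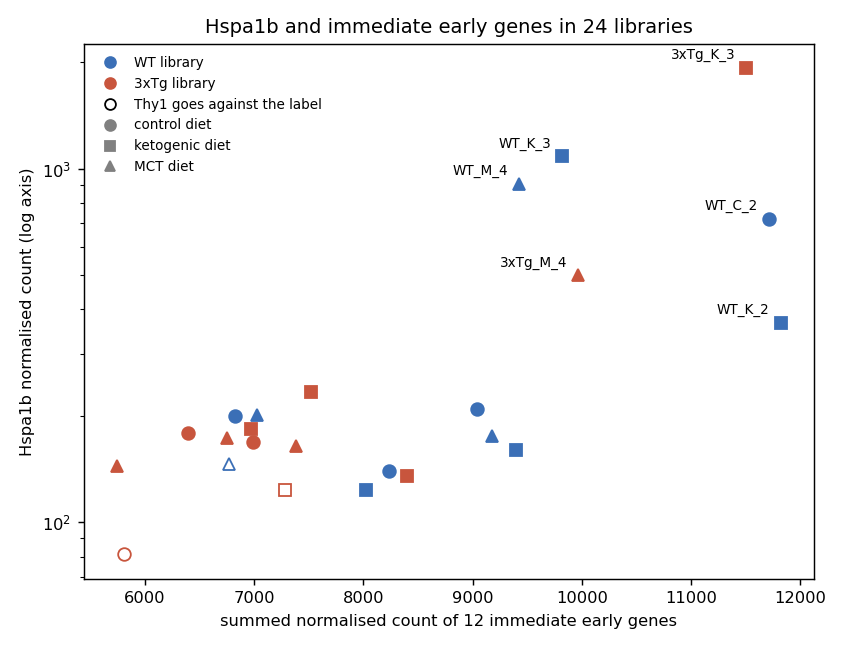
Hspa1b normalised count (y axis, log scale) against the summed normalised count of 12 immediate early genes (x axis) in the 24 libraries, by genotype (colour) and diet (shape), with open symbols for the 3 libraries against their labels. The 6 named libraries are the highest on both axes, from 365 on the y axis and from 9424 on the x axis.

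Outside the members, the genes most like Hspa1b over the 24 libraries were Casp2, a caspase (r = 0.876), Rassf1 (0.869), the bZIP transcription factor gene Cebpg (0.858), Rbm12b1 (0.845) and Ccdc117 (0.834). Without 3xTg_K_3 their r lay between 0.776 and 0.851. Casp2 ranged from 155 to 274 and Cebpg from 766 to 979, far narrower than Hspa1b. Among members, r with Hspa1b was 0.983 for Hspa1a, with which it shares much of its sequence, 0.902 for Dnajb1 and 0.777 for Hspe1. It was 0.041 for Hspa8 and 0.063 for Hspd1.

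Hspd1, which forms the chaperonin ring of the mitochondrion, was the steadiest member, between 1697 in WT_C_1 and 2006 in 3xTg_K_3. The genes most like it were Vamp4, a vesicle fusion protein (r = 0.860), Cct6a, a subunit of the cytosolic chaperonin TRiC (0.799), G3bp2, a stress granule protein (0.797), Msmo1, a cholesterol synthesis enzyme (0.763), and Cetn2 (0.761). Hspe1 had an r of 0.395 with it, or 0.255 without 3xTg_K_3.

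How members vary together within groups was compared for 5 pairs set by function, with group means removed and permutation tests adjusted over the 5. The permutations treated the remaining values as free of each other. Removing group means ties the values within each group together, so these p-values are too small. Adjusted p-values not far under 0.05 therefore do not settle whether a pair passes. That limit holds for r of Hspa8 with Hsp90aa1, and for r and rho of Dnajb1 with Hsph1. Hspa1a and Hspa1b had r = 0.984 and rho = 0.92 (permutation, adjusted p = 5e-05 for each, from the smallest p the permutations can give, 1e-05). Without 3xTg_K_3 and WT_K_3, r was 0.971. Hspa8 and Hsp90aa1 had r = 0.488 and rho = 0.572 (permutation p = 0.0166 and 0.00422, adjusted p = 0.0357 and 0.0106), and 0.642 without WT_C_2 and WT_C_4. Without the 3 libraries against their labels this r was 0.485 (permutation, adjusted p = 0.0641).

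Dnajb1 and Hsph1 had r = 0.467 and rho = 0.466 (permutation p = 0.0214 and 0.023, adjusted p = 0.0357 and 0.0383). This relation rests on 3xTg_K_3 and 3xTg_M_4, since r was 0.142 without them. It also missed the threshold without the 3 libraries against their labels (r = 0.371, permutation, adjusted p = 0.123) and without 3xTg_K_2 (r = 0.438, permutation, adjusted p = 0.0626). Hspd1 and Hspe1, which share the 18-base run above, had r = 0.333 and rho = 0.372 (permutation p = 0.111 and 0.074, adjusted p = 0.111 and 0.0925), and 0.354 without WT_C_1 and WT_K_4. Hsp90aa1 and Hsp90ab1 had r = 0.388 and rho = 0.270 (permutation p = 0.0607 and 0.200, adjusted p = 0.0759 and 0.200), and 0.344 without 3xTg_K_3 and 3xTg_K_5. Neither of the last pairs passed the test, even with p-values that are too small.

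The comparison of the ketogenic with the control diet asks whether a carbohydrate-free diet changes chaperone levels. No member was called in WT or in 3xTg with limma, edgeR or DESeq2 (0 of 10 each), and limma called 0% of all genes in both. In WT, 1 member had an unadjusted p under 0.05. It was Dnaja1, a J-domain partner of cytosolic Hsp70, at 2573, 2779, 2880 and 2554 on the ketogenic diet and 2440, 2395, 2570 and 2426 on the control diet. The groups overlapped, with a log2 difference of 0.13 ± 0.06 (adjusted p = 0.983). Hspa8 was at 0.35 ± 0.19 (adjusted p = 0.983), and at 0.07 without WT_C_2. In 3xTg, 0 of 10 members had an unadjusted p under 0.05. Dnajb1 was at 0.36 ± 0.20 (adjusted p = 0.737) and Hspa1b at 0.99 ± 0.77 (adjusted p = 0.809), with an interval from -0.59 to 2.56 and a value of 0.28 without 3xTg_K_3.

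Averaged over both genotypes, the ketogenic difference was positive for 10 of 10 members, with a median of 0.13 against -0.00 over all genes, of which 47.5% were positive. None was called (0 of 10 by limma, edgeR or DESeq2, and 0% of all genes by limma), and 0 had an unadjusted p under 0.05. Hspd1 was at 0.06 (interval -0.00 to 0.12), Dnaja1 at 0.09 (-0.00 to 0.17), Hsph1 at 0.11 (-0.01 to 0.23) and Hspe1 at 0.15 (-0.05 to 0.35). Hspe1 was at 0.093 without 3xTg_K_3. Without the 3 libraries the median was 0.11 and Hsp90ab1 was at -0.01. The members share libraries such as 3xTg_K_3, so their common sign is not 10 separate observations.

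The MCT diet comparison asks the same of a diet with medium-chain fat. In WT, Hspa8 was at 6435, 5724, 6160 and 6820 on MCT against 3649, 2028, 3988 and 5828 on control, and the groups overlapped only through WT_C_4 and the library labelled WT_M_2. The log2 difference was 0.79 ± 0.19 (interval 0.40 to 1.18), which did not pass over all genes (limma adjusted p = 0.697). Without WT_C_4 it was called, at 1.02 (adjusted p = 0.0369), and without WT_C_2 it was 0.51 (adjusted p = 0.9999). It was the member with the smallest p, and 0.00706% of all genes were called, against 0 of 10 members by limma, edgeR or DESeq2. Leaving out the 3 libraries, limma called 0 of 10 members and 0.0212% of genes. The 4 members with an unadjusted p under 0.05 were Hspa8, Hsp90aa1, Dnaja1 and Hsph1.

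Hsp90aa1 in WT was at 6835, 7004, 6928 and 7589 on MCT and 6231, 6339, 6406 and 6710 on control. The log2 difference was 0.14 ± 0.06 (limma adjusted p = 0.989). Dnaja1 was at 2630, 2652, 2731 and 2720 on MCT and 2440, 2395, 2570 and 2426 on control, at 0.13 ± 0.06 (adjusted p = 0.989). Hsph1 was at 8116, 6881, 8613 and 7575 on MCT and 6686, 6206, 7150 and 7537 on control, at 0.18 ± 0.08 (adjusted p = 0.989). These comparisons and the genotype comparison on the control diet share the same WT_C libraries.

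In 3xTg on MCT, 0 of 10 members were called (limma, edgeR or DESeq2) or had an unadjusted p under 0.05, and 0% of all genes were called. Hspa8 was at 0.09 ± 0.20 (interval -0.33 to 0.50), Hsp90aa1 at -0.00 (-0.12 to 0.12) and Dnaja1 at 0.06 (-0.07 to 0.19). The difference between the genotypes in the MCT effect was tested directly. For Hspa8 it was -0.71 ± 0.28 (3xTg minus WT; limma adjusted p = 0.9998, interval -1.28 to -0.14, and -0.43 without WT_C_2), and 0 of 10 members and 0% of all genes passed. With the 3 libraries left out the shares were 0 of 10 and 0.0142%. By limma, edgeR or DESeq2 no member passed the same test for the ketogenic diet (0 of 10, 0% of genes by limma, 0 with an unadjusted p under 0.05). Averaged over genotypes, the MCT difference was positive for 10 of 10 members with a median of 0.10, and 0 were called (0% of genes, or 0.0142% without the 3 libraries). Over all genes 50.4% were positive, with a median of 0.00. The members share libraries, and the ketogenic comparison uses the same control libraries, so the common sign is not 10 separate observations. Hspa8 (0.44 ± 0.14), Hsph1 (0.13 ± 0.06) and Dnaja1 (0.09 ± 0.04) were the 3 members with an unadjusted p under 0.05 (limma adjusted p = 0.9998 each).

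**Figure D5:**
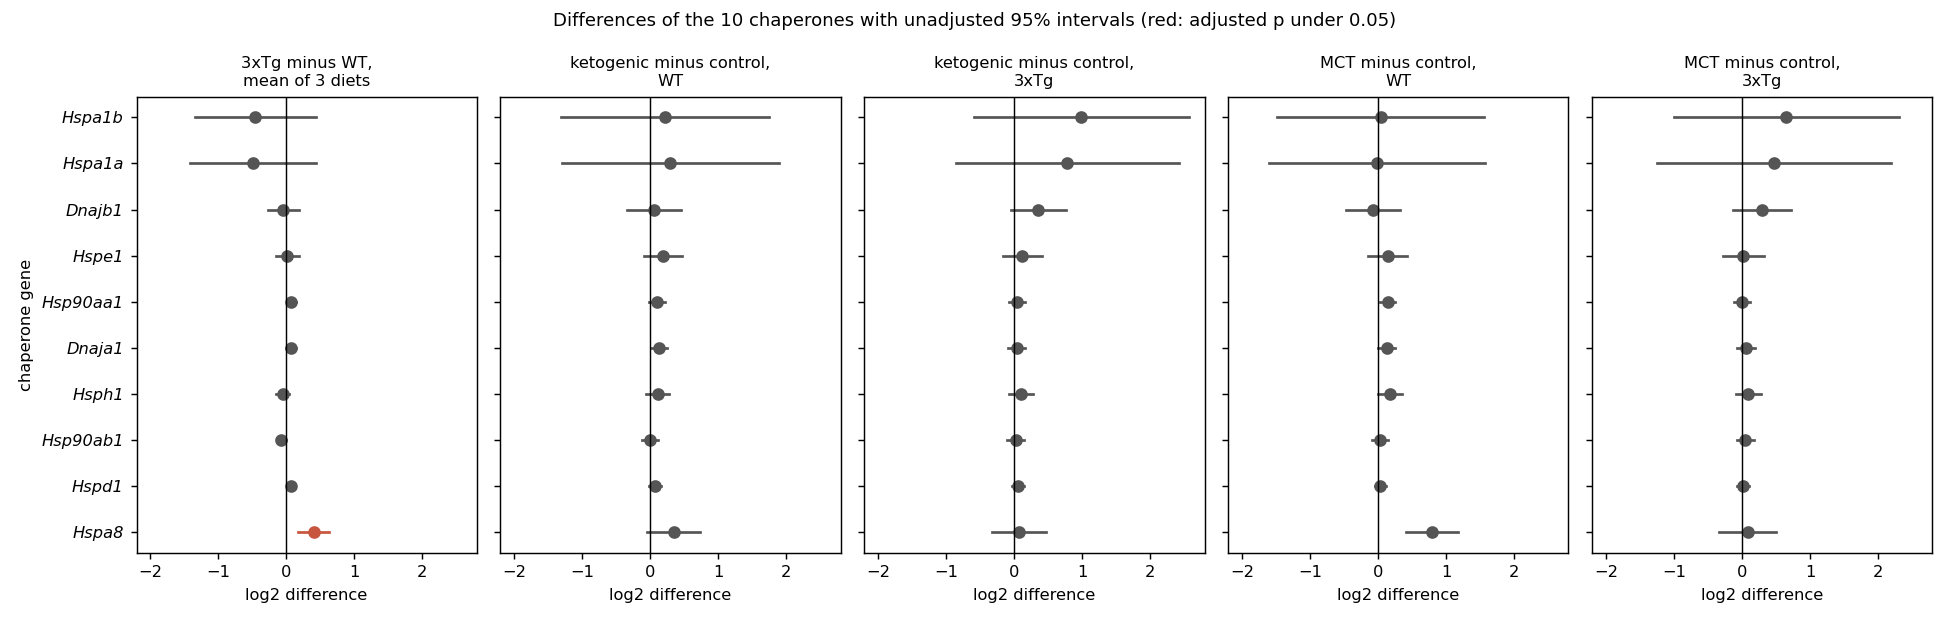
Log2 differences (x axis) of the 10 chaperones (rows) with unadjusted 95% intervals in 5 comparisons, red where the adjusted p over all genes was under 0.05. Hspa8 between genotypes averaged over diets (0.40) is the only red point, and the intervals of Hspa1a and Hspa1b are the widest.

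The genes that work with these chaperones were counted in fixed lists. None of their members was called in a diet comparison by limma, edgeR or DESeq2. Between genotypes within single diets limma and edgeR called none, and DESeq2 called 2 co-chaperones and 1 TRiC gene on the control diet. The share of all genes that DESeq2 called there is not given here. On that diet limma gave 5 of 21 co-chaperones, 4 of 8 TRiC genes and 14.5% of all genes an unadjusted p under 0.05. Once the 3 libraries against their labels were left out, it called 1 co-chaperone higher and 1.74% of all genes. The counts below are limma's for genotype averaged over diets, where 8.10% of genes were called. Of 9 other Hsp70 and Hsp110 genes, 2 rose and 0 fell. They were Hspa13, a microsomal Hsp70 (1404 against 1279, 0.13 ± 0.03, adjusted p = 0.0129), and the Hsp110 exchange factor Hspa4l (4721 against 4340, 0.12 ± 0.03, adjusted p = 0.0325). Hspa4l lost the call in 9 of 34 alternatives, with an adjusted p of up to 0.0733.

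Of 21 co-chaperones, 1 rose and 1 fell. Ttc1, a tetratricopeptide protein, rose by 0.19 ± 0.04 (adjusted p = 0.00301). Bag6, which guards membrane proteins not yet inserted, fell by 0.13 ± 0.03 (adjusted p = 0.0255) and lost the call in 3 of 34 alternatives. Among these was the fit without the 3 libraries against their labels, where Bag6 was at -0.11 (limma adjusted p = 0.067). Of the 8 TRiC subunits 8 were positive, with a median of 0.04, where 49.6% of all genes were positive. They were measured in the same libraries and are not 8 separate observations. Among them 1 rose, Cct6a, by 0.11 ± 0.03 (limma adjusted p = 0.0115). Of 10 mitochondrial proteostasis genes 1 rose, Trap1, the mitochondrial Hsp90, by 0.12 ± 0.03 (adjusted p = 0.0140). For TRiC both edgeR and DESeq2 called 2. DESeq2 called 3 co-chaperones, 2 mitochondrial and 3 immediate early genes, and edgeR called 2, 1 and 2. The shares of all genes that edgeR and DESeq2 called are not given here, so their counts stand as values only.

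By limma, edgeR and DESeq2 alike, 0 were called among the 4 heat shock factor and regulator genes, and limma gave 0 an unadjusted p under 0.05. Here Hsf1, the main stress-responsive factor, was at -0.08 ± 0.05 (adjusted p = 0.338) and Hsf4 at -0.07 ± 0.09. Of the 5 small heat shock protein genes that passed the filter, of 7, all 3 tools called 0 and 1 had an unadjusted p under 0.05 (Cryab, given above), while Hspb3 was at -0.56 ± 0.30. Of 14 other J-domain genes the 3 tools called 0 and 2 had an unadjusted p under 0.05, Dnajc2 at 0.10 ± 0.04 and Dnaja4 at -0.15 ± 0.06. Of 14 endoplasmic reticulum chaperones the 3 tools called 0 and 2 had an unadjusted p under 0.05, Canx at 0.07 ± 0.03 and Calr at -0.13 ± 0.06. Among 12 immediate early genes 12 were negative, with a median of -0.28, where 49.6% of all genes were positive. They were measured in the same libraries, so their common sign is not 12 separate observations. Of the 12, 1 fell, Egr1, by 0.28 ± 0.07 (limma adjusted p = 0.0227), losing the call in 2 of 34 alternatives. With the 3 libraries against their labels left out, limma called 13.2% of all genes. It then called 3 of 9 other Hsp70 and Hsp110 genes, 3 of 21 co-chaperones, 1 of 8 TRiC, 2 of 10 mitochondrial and 2 of 14 endoplasmic reticulum genes higher. It called 1 of 14 J-domain genes, 2 of 12 immediate early genes and 0 of 21 co-chaperones lower.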

How the data were processed

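Hippocampal mRNA of 24 female mice was sequenced. The authors deposited a single table with 21793 genes in rows, whose signal values are read counts scaled by 1 factor per library. Reads were processed with Trimmomatic and STAR on GRCm38, per the submitters' processing notes. Not given in the sources used here are the counter, its use of strand, its treatment of reads that match several places, the annotation and whether molecular identifiers were used. In every library 100% of the low values tested were whole multiples of 1 step, within 0.01 reads, so whole reads were recovered.

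The filter was a value of 10 in 3 libraries, which 14162 genes passed. The model of log2(value + 1), made in limma 3.58.1 (R 4.3.3), had 6 group means and a spread shared by all. Tests were two-sided, adjusted by Benjamini-Hochberg over all kept genes, and called at an adjusted p under 0.05. All 10 chaperones passed the filter. Reads ranged from 2.65 to 25.8 M per library, and PCR reads are not independent molecules, so errors are spreads between mice. No 2 libraries were copies (lowest chi-square per degree of freedom 1.57).

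Alternatives were other pseudocounts (0.5 and 5), other filters (none, or a mean of 50), TMM factors, edgeR 4.0.16 and DESeq2 1.42.0 on recovered reads, a replicate block, the compared groups alone, and fits without single libraries or without 3 libraries whose Thy1 level went against the label. The fit was tested on simulated data. Members, lists, pairs and tests were chosen with earlier results of these data known. Named genes were all members, up to 4 called genes of each list (or the 2 of smallest p, as values), and the 5 genes most alike to Hspa1b, Hspa8 and Hspd1 by Pearson r, predicted genes left out. Positions are from GENCODE M21 on GRCm38 and upstream sequences from RefSeq on GRCm38.p6.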

Additional observations from a re-analysis of the deposited data

Results flagged for a closer look

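Among the 50 combinations of a chaperone and a group of 4 or 5 libraries, 7 had 1 library whose gap to the nearest other, as a share of the group's range on the log2 scale, passed Dixon's 95% critical value, where chance gives about 1 in 20. In 3xTg on the ketogenic diet, 3xTg_K_3 stood apart in Hspa1b at 1921 normalised counts and in Dnajb1 at 1329. In 3xTg on the MCT diet, 3xTg_M_4 stood apart in Hspa1a at 359, in Hspa1b at 499 and in Hsph1 at 7995. The library labelled WT_M_2, whose Thy1 level goes against its label, stood apart in Hsp90ab1 at 24334, below the other 3. WT_K_4 stood apart in Hspd1 at 1782, below the other 3. The members are not independent, since the same 2 libraries hold 5 of the 7.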

How the results depend on the processing

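Of 272 counts of members called under an alternative, 269 equalled those reported. The exceptions were Hspa8 in each case: 0 called for genotype averaged over diets without 3xTg_C_1, and 1 called without WT_C_4 for genotype on the control diet and for MCT in WT, so that leaving out single libraries gave 0 to 1 for these 3. The correlation of Hspa8 with Hsp90aa1 was 0.485 (permutation, adjusted p = 0.0641) and that of Dnajb1 with Hsph1 0.371 (adjusted p = 0.123) without the 3 libraries against their labels, and the latter was 0.438 (adjusted p = 0.0626) without 3xTg_K_2. The cause was not tested. The uncalled Hspa8 differences changed sign without the 3 libraries, to -0.019 for genotype on the MCT diet and -0.0079 for MCT in 3xTg. Leaving out single libraries gave -0.023 to 0.069 and -0.0079 to 0.17 for these, and -0.40 to 0.72 for Hspa1b on the ketogenic diet in WT. No label says what the replicate numbers mark, so they were not taken as pairs. The mean correlation of same-numbered libraries of different groups was 0.0061 (from -0.256 to 0.248), and 6 of 24 libraries correlated best with their own number. With the number as a replicate block, 1 member (Hspa8) was called for genotype averaged over diets and 0 elsewhere, and the count over all genes was 1177 in place of 1147. At these depths the members with the fewest reads were Hspa1a, with 17 in 3xTg_K_2, and Hspa1b with 34.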
